A study of Mus musculus with 9 samples.

Results

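The 7 genes described here encode the mouse receptors that bind the Fc part of immunoglobulin G and the proteins through which these receptors signal. They are Fcgr1, Fcgr2b, Fcgr3 and Fcgr4, the shared adaptor Fcer1g, the kinase Syk and the neonatal Fc receptor Fcgrt. They were taken by symbol, with earlier results of these data known, and they are 7 of the 18303 genes listed in the deposited table. All 7 passed the filter on low counts.

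The libraries came from wounded skin of C57BL/6J wild-type mice, from which cells with the surface proteins CD45, CD11b and F4/80 were sorted at day 4 (n = 4 libraries) or day 14 (n = 5 libraries) after injury. CD45 marks blood-derived cells, and CD11b with F4/80 marks macrophages among them. The tissue was taken apart with an enzyme blend and by mechanical force, Fc receptors were blocked with an antibody to CD16/CD32 (the proteins of Fcgr3 and Fcgr2b), CD115 was stained as well, dead cells were removed with 7-AAD, and the sorted cells went to RNA extraction without treatment. The comparison asks how macrophages of the early wound differ from those of the late wound. The labels do not tie the libraries to separate animals, so a p-value here reflects only how far these samples scatter, and that scatter may be technical. In sorted bulk RNA, fewer cells of a type and less RNA per cell cannot be told apart.

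Macrophages use Fc gamma receptors to detect antibody bound to microbes, debris or soluble immune complexes. The activating receptors Fcgr1, Fcgr3 and Fcgr4 pair with the adaptor Fcer1g, whose tail carries an immunoreceptor tyrosine-based activation motif (ITAM): Src family kinases phosphorylate its tyrosines, Syk docks there, and the cell engulfs the particle or releases mediators. Fcgr2b is the inhibitory receptor of the family: its own tail carries an inhibitory motif (ITIM) that recruits the lipid phosphatase encoded by Inpp5d, so that the balance of activating and inhibitory receptors sets how strongly a cell answers the same immune complex.

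The motifs that separate activating from inhibitory signalling are shown first, as coding sequence of the gene's strand, because the results compare the genes that carry them. Sequences are from GENCODE M21 transcripts on GRCm38, the assembly that mm10 names, and capitals mark the tyrosine codons. The Fcer1g stretch lies in 2 exons at chr1:171229883-171230078 and the Fcgr2b stretch in 2 exons at chr1:170961047-170961207, both on the minus strand.
Fcer1g ITAM: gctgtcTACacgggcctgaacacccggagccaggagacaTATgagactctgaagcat
Fcgr2b ITIM: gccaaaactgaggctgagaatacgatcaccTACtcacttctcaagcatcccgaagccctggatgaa
A search of the translated coding sequences of the 7 genes for the ITAM pattern found 1 match, in Fcer1g. The Fc gamma receptor genes Fcgr1, Fcgr3 and Fcgr4 held 0 such matches. The shorter ITIM pattern had 1 match in Fcgr2b, the one shown, and also matched in Fcgr1 (3 matches) and in Fcgr4, Fcer1g and Fcgrt (1 each), where it says only that the letters occur.

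Library depth ran from 17982633 to 57809918 estimated counts. The counts of day 14 replicate 5 stop partway along chromosome 9, and 805 of 808 well-counted genes beyond that point were at 0 in this library; all 7 genes described here lie before it. Of 10 macrophage and sort markers, 10 were tested, 3 were higher at day 14 and 3 lower, and their summed level was 22589 to 26257 CPM at day 4 and 25961 to 28471 CPM at day 14 (CPM, a library's counts scaled to a common total, adjusted between libraries by the trimmed mean of M-values, TMM). Among markers of other cells, 11 of 16 fibroblast genes were lower at day 14 (sum 17206 to 28901 CPM at day 4, 11125 to 16046 CPM at day 14), 1 of 8 tested neutrophil genes was lower (sum 1050 to 2458 CPM, then 299.7 to 1925 CPM), and 7 of 11 dendritic cell genes were higher (sum 174 to 259 CPM, then 341 to 420 CPM). The natural killer cell sum was 12.3 to 23.1 CPM at day 4 and 40.4 to 54.1 CPM at day 14, a difference carried by Klrk1 (9.70 then 40.2 CPM), while Klrd1 was not called (-0.049 log2) and Ncr1 was at 0 in 6 libraries. The B cell sum was 24.2 to 30.1 CPM and then 30.1 to 37.8 CPM, with Pax5 at 0 in 7 libraries. Higher at day 14 were also 4 of 4 tested eosinophil genes (sum 7.86 to 13.7 CPM, then 25.9 to 33.3 CPM, with Epx at 0 in 6 libraries), 2 of 2 T cell genes (Cd4 and Cd28; list sum 49.0 to 55.3 CPM, then 74.1 to 106 CPM), 5 of 7 keratinocyte genes (sum 6.34 to 10.5 CPM, then 9.21 to 21.4 CPM) and 2 of 8 endothelial genes (sum 52.1 to 58.4 CPM, then 38.4 to 90.6 CPM). Of the T cell list, Cd3e, Cd3d, Cd3g, Lck and Cd8a did not pass the filter on low counts. Lck reached at most 0.40 CPM and Cd8a at most 0.27 CPM in any library. Of 6 mast cell and basophil genes, 3 were higher and 1 was lower (sum 13.7 to 26.9 CPM, then 12.9 to 25.7 CPM). The part of these cells in the results below was not tested. The mean level of the fibroblast markers was used as a covariate in an alternative fit. The fibroblast sums did not overlap between days, so that fit cannot separate the part of fibroblasts from the day.

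Between day 4 and day 14, the RNA of the high-affinity receptor Fcgr1 and of Fcgr4 was 2.14-fold and 2.00-fold lower, while Fcgr3, Fcer1g and Syk did not pass the test. Of the 7 genes, 3 were called lower at an adjusted p under 0.05 (Fcgr1, Fcgr4 and Fcgr2b) and 0 were called higher. Across all 12297 genes tested, 31% were called, 15.9% higher and 15.1% lower (edgeR quasi-likelihood test, Benjamini-Hochberg adjustment). The median log2 fold change of the 7 genes was -0.26, against 0.01 over all genes tested. In 12.6% of all genes tested, every day 14 library lay below every day 4 library, as was the case for Fcgr1 and Fcgr4.

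**Figure D1:**
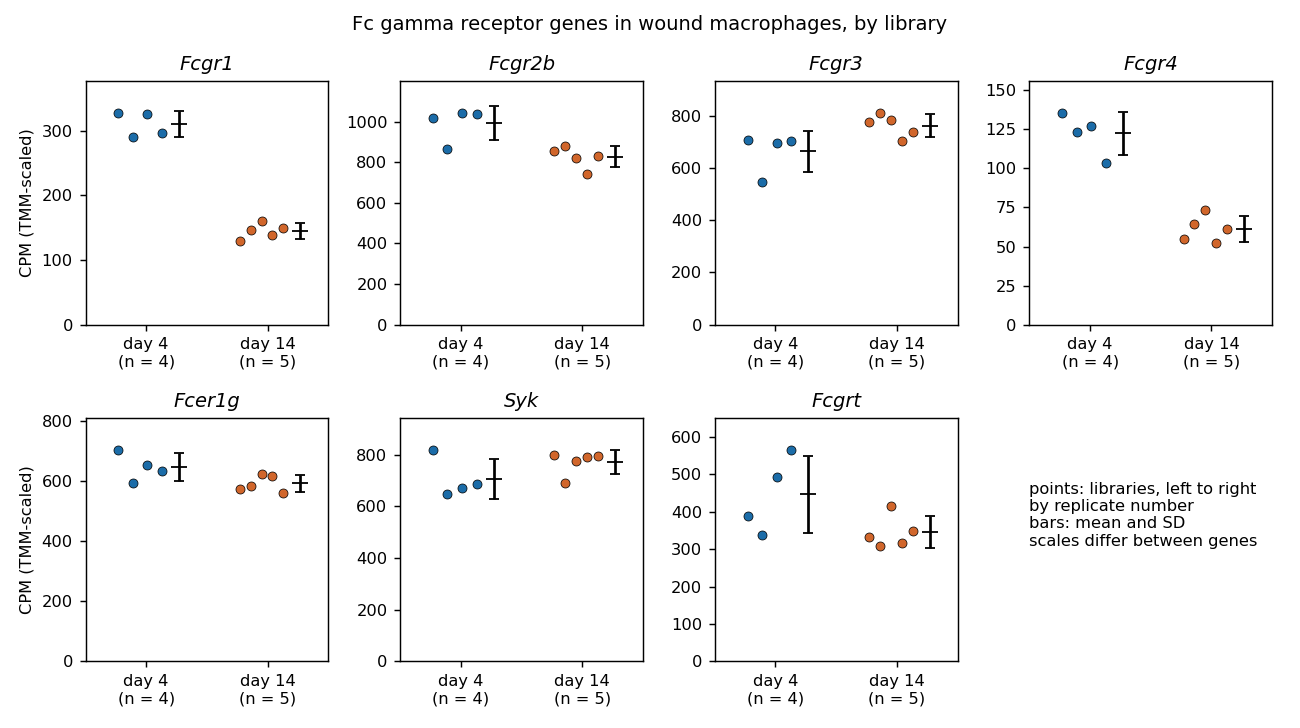
TMM-scaled CPM (y axis, from 0, with a scale of its own for each gene) of the 7 genes in each day 4 library (blue, n = 4) and day 14 library (orange, n = 5), with the mean and SD beside the points. The days do not overlap for Fcgr1 and Fcgr4 and overlap for the 5 other genes.

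Fcgr1 encodes CD64, the receptor of the family with high affinity for monomeric IgG. Its level was 328, 290, 327 and 297 CPM in the 4 day 4 libraries and 129, 146, 161, 139 and 150 CPM in the 5 day 14 libraries. The days did not overlap, and the libraries of each day lay close together. The mean went from 310 ± 19.8 CPM (SD, n = 4) to 145 ± 11.9 CPM (SD, n = 5), a log2 fold change of -1.10 ± 0.09 (SE) with an adjusted p of 3.27e-06. Among 12297 genes tested, Fcgr1 ranked 72 by p. The gene lies at chr3:96282909-96293969 on the minus strand of GRCm38, apart from the other 3 receptors.

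Fcgr4 encodes a mouse activating receptor expressed mainly by myeloid cells. Its level was 136, 123, 127 and 103 CPM at day 4 and 54.9, 64.5, 73.6, 52.5 and 61.0 CPM at day 14. Again every day 4 library lay above every day 14 library, with day 4 replicate 4 the nearest to the day 14 libraries. The mean fell by 1.00 ± 0.11 on the log2 scale (adjusted p = 4.62e-05), from 122 ± 13.7 CPM (SD, n = 4) to 61.3 ± 8.36 CPM (SD, n = 5). Fcgr4 lies at chr1:171018920-171029761 on the plus strand.

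Because Fcgr1 and Fcgr4 fell together, the 150 bases before each start site are shown, from the RefSeq promoter windows on GRCm38, in the direction of transcription. Capitals mark matches, on either strand, to TTCNNNGAA, the core of the element bound by STAT factors, and to GAGGAA, a core bound by PU.1, the transcription factor of the macrophage lineage. The Fcgr1 stretch is chr3:96293970-96294119 (minus strand) and the Fcgr4 stretch chr1:171018776-171018925 (plus strand).
Fcgr1 upstream: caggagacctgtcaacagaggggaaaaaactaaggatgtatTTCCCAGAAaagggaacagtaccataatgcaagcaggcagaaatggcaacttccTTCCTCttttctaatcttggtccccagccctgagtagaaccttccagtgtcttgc
Fcgr4 upstream: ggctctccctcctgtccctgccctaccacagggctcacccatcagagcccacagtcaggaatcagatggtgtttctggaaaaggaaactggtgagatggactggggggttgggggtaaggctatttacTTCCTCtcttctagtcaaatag
In windows of 300 bases, Fcgr1 held 1 match to TTCNNNGAA, starting at position -109 from the start site, and 1 to GAGGAA at -55. Fcgr4 held 1 match to GAGGAA at -22 and 0 to TTCNNNGAA. Fcgr3, which was not called, also held GAGGAA, at -6 or -15 depending on its start site, and so did 1 of the 2 windows of Syk, at -9. Of 32851 promoter windows of this length, 8.30% held TTCNNNGAA and 28.3% held GAGGAA. The 2 matches in Fcgr1 share no bases, and no binding was measured.

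Fcgr3 encodes CD16, the low-affinity activating receptor. Its level was 708, 545, 694 and 704 CPM at day 4 and 777, 811, 785, 702 and 737 CPM at day 14. Day 4 replicate 2 stood below all other libraries, and the other 3 day 4 libraries touched the lower end of day 14. The mean was 663 ± 78.6 CPM (SD, n = 4) at day 4 and 762 ± 42.8 CPM (SD, n = 5) at day 14, a log2 difference of 0.20 ± 0.10 that did not pass the test (adjusted p = 0.135, 95% interval -0.01 to 0.41). With the fibroblast markers as a covariate the direction turned, to -0.044 ± 0.15 (adjusted p = 0.89). The sum of these markers did not overlap between days, so covariate and day cannot be fully told apart in that fit.

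Fcgr2b, the inhibitory receptor CD32, was called lower at day 14 by a small margin. Its level was 1019, 867, 1043 and 1038 CPM at day 4 and 855, 880, 819, 744 and 832 CPM at day 14. Day 4 replicate 2 lay inside the day 14 range, and the other 3 day 4 libraries lay above it. The log2 fold change was -0.26 ± 0.09 (adjusted p = 0.041), from 991 ± 83.9 CPM (SD, n = 4) to 826 ± 51.3 CPM (SD, n = 5). The call was lost when day 4 replicate 1, 3 or 4 or day 14 replicate 1, 2, 4 or 5 was left out (adjusted p 0.0572 to 0.0891) and with library size or the fibroblast markers as a covariate (adjusted p 0.156 and 0.105), while the direction held in all 21 alternatives.

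The adaptor Fcer1g, without which the activating receptors are not stably displayed, was not called. It measured 704, 594, 652 and 634 CPM at day 4 and 574, 584, 622, 618 and 561 CPM at day 14. The days overlapped, with day 4 replicate 1 the highest. The log2 difference was -0.13 ± 0.08 (adjusted p = 0.252), with a 95% interval of -0.30 to 0.05 that does not reach the fall of Fcgr1 or Fcgr4.

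Syk, the kinase that binds the phosphorylated ITAM, measured 820, 648, 670 and 687 CPM at day 4 and 800, 690, 776, 789 and 795 CPM at day 14. Day 4 replicate 1 was the highest library of all, and day 14 replicate 2 sat with the other day 4 libraries. The difference of 0.12 ± 0.09 on the log2 scale did not pass the test (adjusted p = 0.326, 95% interval -0.08 to 0.33).

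Fcgrt encodes the neonatal Fc receptor, which pairs with beta-2 microglobulin (B2m) inside endosomes and returns IgG from the path to the lysosome. Its level varied most among the day 4 libraries, at 390, 337, 493 and 566 CPM, against 333, 309, 416, 316 and 349 CPM at day 14. The 2 deepest day 4 libraries, replicates 3 and 4, were the high ones, and the days overlapped. Among the day 14 libraries the deepest, replicate 1, was at 333 CPM, and the highest level, 416 CPM, was in replicate 3. The log2 difference of -0.37 ± 0.15 did not pass the test (adjusted p = 0.0712). Leaving out day 4 replicate 2 or day 14 replicate 3 brought it past the threshold (adjusted p = 0.0169 and 0.029), as did the DESeq2 test (adjusted p = 0.042), and it measured -0.22 with library size as a covariate and -0.076 in the 6 shallower libraries. B2m was not called, with means of 3269 ± 273 CPM (SD, n = 4) and 3171 ± 461 CPM (SD, n = 5).

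**Figure D2:**
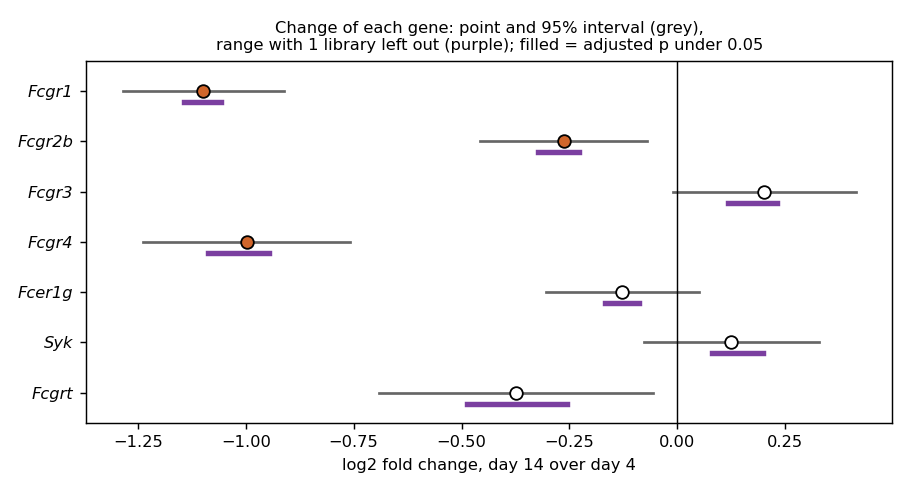
Log2 fold change (x axis, day 14 over day 4) of the 7 genes, with its 95% interval (grey) and the range of values when each library is left out in turn (purple). Filled points are the 3 genes with an adjusted p under 0.05. Fcgr1 and Fcgr4 lie near -1 and apart from the 5 other genes.

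Levels can be compared between genes only per length of transcript, here as CPM per kilobase. The bounds are the shortest and longest GENCODE protein-coding transcript linked to a RefSeq transcript, and other annotated transcripts were left out. Fcer1g was the highest at both times, at 882 to 1045 CPM per kilobase over the day 4 libraries and 832 to 923 at day 14. Fcgr3 followed, at 405 to 525 and then 521 to 602, beside Fcgr2b. The 2 such transcripts of Fcgr2b, of 1462 and 3544 bases, leave a range of 245 to 713 and then 210 to 602. The order of Fcgr3 and Fcgr2b therefore cannot be told. Fcgrt, at 190 to 320 CPM per kilobase at day 4, lay below Fcgr3 and overlapped the range of Fcgr2b. Then came Syk at 121 to 160 and Fcgr1 at 112 to 127, whose ranges overlapped. Fcgr4 was the lowest, at 82.3 to 108 CPM per kilobase. At day 14 Syk stood at 129 to 156 CPM per kilobase, while Fcgr1 (49.8 to 62.2) and Fcgr4 (41.8 to 58.6) lay below it with overlapping ranges.

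The receptors were next set against the inhibitory receptor within each library, as ratios of estimated counts, which need no scaling between libraries. Gene lengths differ, so a ratio is read only as a change between days. The ratio of Fcgr3 to Fcgr2b separated the days although neither gene did so alone. It was 0.695, 0.629, 0.666 and 0.679 in the day 4 libraries and 0.909, 0.921, 0.958, 0.943 and 0.886 in the day 14 libraries. Every day 14 library lay above every day 4 library, and the SD within a day was 0.0279 (n = 4) and 0.0282 (n = 5). The mean rose from 0.667 to 0.924, a log2 difference of 0.47 ± 0.04 (SE; exact two-sided permutation p = 0.0159, adjusted p = 0.0238 over 6 ratios). This p is the smallest that 4 against 5 libraries allow.

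The ratios of the 2 falling receptors moved the other way. Fcgr1 to Fcgr2b went from 0.314 ± 0.0205 (SD, n = 4) to 0.176 ± 0.0178 (SD, n = 5), and Fcgr4 to Fcgr2b from 0.124 ± 0.0183 to 0.0742 ± 0.00947. The log2 differences were -0.84 ± 0.08 and -0.74 ± 0.14, with no overlap between days in either (each exact permutation p = 0.0159, adjusted p = 0.0238). Without day 4 replicate 2, 3 or 4 the adjusted p of all 3 ratios was 0.0536, where the smallest unadjusted p that the exact test allows is 0.0357, and the days still did not overlap. Summed over Fcgr1, Fcgr3 and Fcgr4, activating to inhibitory counts stood at 1.11 ± 0.0350 (SD, n = 4) at day 4 and 1.17 ± 0.0486 (SD, n = 5) at day 14, with overlapping libraries. Within the activating receptors, Fcgr1 measured 0.397 ± 0.0275 of the counts of Fcgr3 and Fcgr4 together at day 4 and 0.176 ± 0.0145 at day 14. Fcer1g measured 0.591 ± 0.0243 of the summed activating receptor counts at day 4 and 0.612 ± 0.0461 at day 14.

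**Figure D3:**
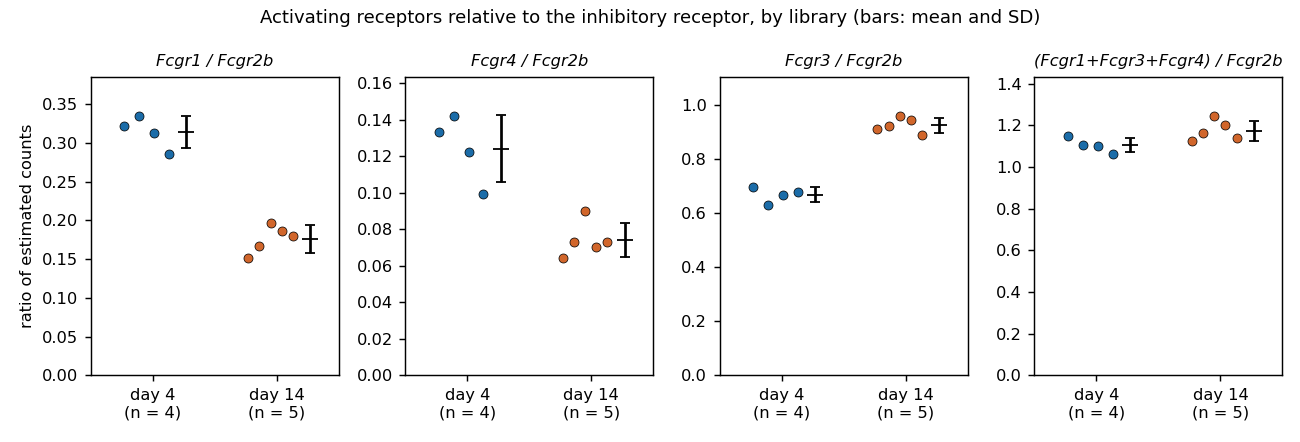
Ratio of estimated counts (y axis, from 0) of each activating receptor, and of the 3 summed, to the inhibitory receptor Fcgr2b in each day 4 (blue) and day 14 (orange) library, with mean and SD. Fcgr1 and Fcgr4 relative to Fcgr2b are lower at day 14, Fcgr3 relative to Fcgr2b is higher, and the summed ratio overlaps between days.

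Fcgr2b and Fcgr3 are near-identical over part of their coding sequence, which bears on how reads are divided between them. Their aligned coding bases were 86.7% identical, and a block of 513 bases without gaps held 493 identical ones (96.1%), with an identical run of 129 bases. A 180-base stretch around that run, encoding part of the IgG-binding outer region, is shown with its 3 differing bases in capitals. It lies in 2 exons of each gene, at chr1:170966649-170968107 (Fcgr2b) and chr1:171054142-171057818 (Fcgr3) on the minus strand.
Fcgr2b shared: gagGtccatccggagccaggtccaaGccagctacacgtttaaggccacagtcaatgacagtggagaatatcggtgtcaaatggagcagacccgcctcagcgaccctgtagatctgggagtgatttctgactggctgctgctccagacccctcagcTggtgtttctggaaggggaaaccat
Fcgr3 shared: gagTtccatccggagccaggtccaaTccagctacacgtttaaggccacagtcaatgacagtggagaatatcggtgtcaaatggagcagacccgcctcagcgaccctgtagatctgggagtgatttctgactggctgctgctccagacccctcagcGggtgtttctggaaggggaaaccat
Of all 100-base stretches of the coding sequence, the read length used here, 44 of 921 in Fcgr2b (4.78%) and 44 of 702 in Fcgr3 (6.27%) occurred in the other gene, and 0 did so in any other pair of the 4 receptors. The deposited estimates were not whole numbers in 7 of 9 libraries for Fcgr2b, in 6 for Fcgr3 and in 6 for Syk, and were whole in all libraries for the 4 other genes. How far the division of shared reads moved the Fcgr3 to Fcgr2b ratio was not tested.

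Among libraries of the same day, Fcgr2b and Fcgr3 moved together. Both had their lowest level of the day in day 4 replicate 2 and in day 14 replicate 4. Day 4 replicate 2 was also the lowest of its day for Fcgr1, Fcer1g, Syk and Fcgrt (290, 594, 648 and 337 CPM), and day 14 replicate 4 for Fcgr4. After the mean of each day was taken out, the log2 CPM of Fcgr2b and Fcgr3 correlated with r = 0.93 over the 9 libraries. The same residual correlation was 0.80 for Fcgr1 with Fcgr4 and 0.15 for Fcgr2b with Fcgr4. These values describe 9 libraries that share their scaling factors between genes, and for Fcgr2b and Fcgr3 reads of shared sequence too. Day 4 replicate 2 also had the highest fibroblast marker sum, at 28901 CPM against 17206 to 21242 CPM in the other 3 day 4 libraries. The neutrophil marker sum was highest in day 4 replicate 1 (2458 CPM) and day 14 replicate 3 (1925 CPM). Those libraries also held the highest Fcgr1 (328 and 161 CPM) and Fcgr4 (136 and 73.6 CPM) of their day. Day 4 replicate 4, with the next highest neutrophil sum of its day (1368 CPM), had the lowest Fcgr4 of that day (103 CPM). The part of neutrophils was not tested.

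**Figure D4:**
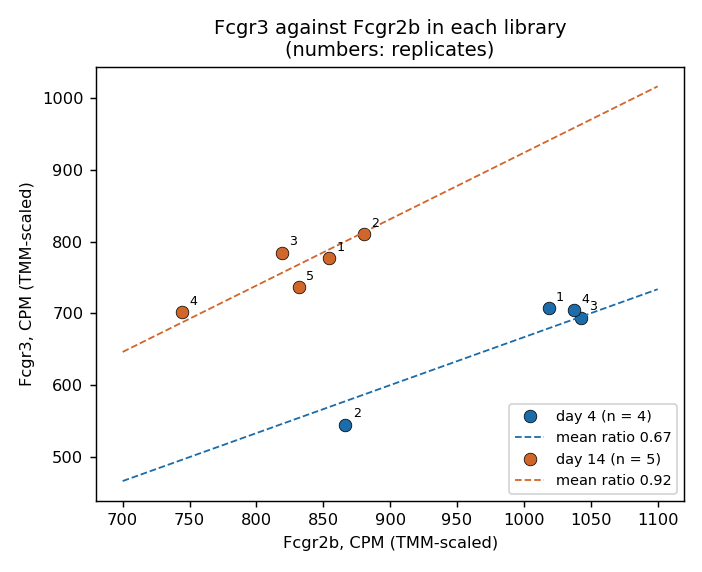
TMM-scaled CPM of Fcgr3 (y axis) against Fcgr2b (x axis) in each library, numbered by replicate, with dashed lines at the mean ratio of estimated counts of each day (0.67 at day 4, 0.92 at day 14). Axes do not start at 0. The libraries of each day lie along the line of their day, with day 4 replicate 2 low in both genes.

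Fcgr2b, Fcgr4, Fcgr3 and Fcer1g lie in this order within 275749 bases of chromosome 1. Fcgr4, which fell, lies between Fcgr2b and Fcgr3. Of the 5 other genes tested in this interval, 2 were lower at day 14 (Sdhc and Pcp4l1). The annotated gene Gm38204 overlaps Fcgr2b on the opposite strand and Gm45669 overlaps Fcgrt likewise. The library kit does not keep the strand, so reads from bases that such a gene shares with a receptor cannot be assigned by strand. The overlap is of whole gene spans, introns included, and whether exons overlap was not examined.

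The genes whose log2 CPM over the 9 libraries was most like each receptor, among 8792 genes with a mean of at least 5 CPM, were ranked by Pearson's r, which here includes the difference between days. For Fcgr1 they were Lgals3bp (r = 0.995; 552 then 251 CPM) and AF251705 (r = 0.995; 195 then 124 CPM). For Fcgr4 they were Irf7 (r = 0.991; 252 then 84.5 CPM) and Ms4a4c (r = 0.990; 166 then 63.0 CPM). All 4 were called lower. The nearest to Fcgr2b were Thap4 (r = 0.963) and Gucd1 (r = 0.957), both called lower, and the nearest to Fcgr3 were Acp6 (r = 0.958) and Ddx39b (r = 0.951), neither called. Spag7 and Nedd8 were nearest to Fcer1g (r = 0.963 and 0.951), Adora2a and Fam132a to Syk (r = 0.968 and 0.936), and Adsl and Nit1 to Fcgrt (r = 0.983 and 0.982); none of these 6 was called.

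Genes around the receptors were described by 6 lists that hold 94 symbols, of which 84 were tested. Of these, 18 were higher at day 14 and 14 lower, a called share of 38.1% beside the 31% of all genes. The median log2 fold change was 0.01, as over all genes. The 8-library fit, used for the list genes that day 14 replicate 5 does not cover, called 28.6% of its 13287 genes. Without any 1 library, 23 of the 32 called genes kept their call. Those that lost it when at least 1 library was left out were Dok3, Elmo1, Limk1, Pak1, Prkcd, Ptpn12, Ptpn22, Tyrobp and Vav1. With the fibroblast markers as a covariate 10 genes of the lists were called, in a fit that called 519 genes higher and 385 lower over all genes.

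The proximal kinases act first, phosphorylating the ITAM or acting next to Syk. Of 8 tested, 2 were higher at day 14 (Fyn and Tec) and 3 lower, among them Src and Fgr. Src went from 31.5 ± 7.30 CPM (SD, n = 4) to 12.8 ± 2.78 CPM (SD, n = 5), a log2 fold change of -1.30 ± 0.18 (adjusted p = 0.000228). The myeloid Src family kinase Fgr went from 141 ± 16.1 to 91.8 ± 16.4 CPM (-0.62 ± 0.13 log2, adjusted p = 0.00308). Fyn rose from 56.5 ± 5.81 to 81.4 ± 12.4 CPM (0.53 ± 0.12 log2), and Tec, a kinase of the Btk family, from 67.7 ± 3.90 to 94.1 ± 12.5 CPM (0.48 ± 0.10 log2). Lyn, with 551 ± 34.7 CPM in the early and 545 ± 27.5 CPM in the late wound, was not called (-0.01 ± 0.08 log2, adjusted p = 0.915).

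Downstream of Syk, 4 of 22 tested adaptors and second messenger enzymes were higher (Prkca, Prkce, Vav2 and Prkcd) and 3 lower (Pik3cb, Gab2 and Vav1), a share of 31.8% called. Of the 4 that rose, 3 encode protein kinase C enzymes. Prkca went from 9.97 ± 2.23 CPM (SD, n = 4) to 21.2 ± 1.84 CPM (SD, n = 5), a log2 fold change of 1.09 ± 0.15 (adjusted p = 0.000186). Prkce went from 13.5 ± 1.61 to 24.1 ± 0.955 CPM (0.83 ± 0.10 log2, adjusted p = 6.28e-05). Prkcd went from 338 ± 21.8 to 402 ± 16.4 CPM (0.25 ± 0.08 log2, adjusted p = 0.0299), a call lost in 7 of the 9 fits that left out 1 library. Of the Vav exchange factors for Rac, Vav1 fell by 0.32 ± 0.09 on the log2 scale and Vav2 rose by 0.34 ± 0.09. Vav3 was not called (0.14 ± 0.07 log2, adjusted p = 0.167). The call of Vav1 was lost in 3 of the 9 fits that left out 1 library. Gab2, a scaffold for phosphoinositide 3-kinase, fell by 0.41 ± 0.08, and Pik3cb, a catalytic subunit of that kinase, fell by 0.54 ± 0.11 in the fit of 8 libraries.

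Of 14 tested phosphatases, ubiquitin ligases and adaptors around the pathway, 4 were higher at day 14 and 2 lower. The widest change was that of Sh2d1b1, an adaptor of SLAM family receptors better known from natural killer cells, from 3.90 ± 0.885 CPM (SD, n = 4) to 14.7 ± 2.50 CPM (SD, n = 5), a log2 fold change of 1.91 ± 0.18 (adjusted p = 1.30e-05). Its part from natural killer cells, of whose markers Klrk1 was higher at day 14 while Klrd1 was not called and Ncr1 was at 0 in 6 libraries, was not tested. Dok2, which recruits the Ras inhibitor RasGAP, rose from 63.1 ± 20.1 to 110.4 ± 11.05 CPM (0.80 ± 0.18 log2, adjusted p = 0.00603), while its relative Dok3 fell from 39.3 ± 12.5 to 23.2 ± 7.64 CPM (-0.77 ± 0.25 log2, adjusted p = 0.0353). The Dok3 call was lost in 10 of 21 alternatives, among them those without day 4 replicate 3 or 4 or day 14 replicate 1, 2 or 4, and its value was -0.30 in the 6 shallower libraries. Dok2 measured 0.43 with the fibroblast covariate, without a call (adjusted p = 0.382). Ptpn22 rose by 0.44 ± 0.12 and Ptprc, the CD45 of the sort gate, by 0.39 ± 0.09 on the log2 scale, and Ptpn12 fell by 0.31 ± 0.10. Inpp5d, the phosphatase drawn to the Fcgr2b tail, was at 389 ± 37.2 CPM and then 344 ± 31.1 CPM and was not called (-0.18 ± 0.10 log2, adjusted p = 0.179). Ptpn6, the phosphatase SHP-1, was not called either (-0.32 ± 0.13 log2, adjusted p = 0.083).

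The actin machinery that builds the phagocytic cup had 6 genes higher and 3 lower of 27 tested, with 33.3% called. Marcks, an actin and membrane-binding substrate of protein kinase C, rose from 372 ± 34.5 CPM (SD, n = 4) to 662 ± 99.3 CPM (SD, n = 5), a log2 fold change of 0.83 ± 0.12 (adjusted p = 0.000325). Dock2, an exchange factor for Rac in blood cells, rose from 449 ± 21.4 to 581 ± 32.9 CPM and Arf6, a GTPase of membrane delivery to the cup, from 217 ± 4.91 to 284 ± 39.9 CPM. The others that rose were Limk1, Pak1 and Elmo1. Myo10, a motor that carries the cup's edge forward, fell by 1.24 ± 0.12 on the log2 scale (adjusted p = 2.32e-05), from 28.4 ± 4.62 to 12.03 ± 1.44 CPM. Gsn, which severs actin filaments, fell from 463 ± 79.7 to 266 ± 34.9 CPM and Arpc3, a subunit of the Arp2/3 complex, from 506 ± 30.7 to 417 ± 12.6 CPM. With the fibroblast markers as a covariate, 6 of these 9 genes lost their call (Arf6, Arpc3, Dock2, Limk1, Pak1 and Elmo1) and Gsn, Myo10 and Marcks kept it.

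Among 9 other Fc receptors and antibody-binding proteins tested, Fcrls was higher and Fcrlb and Fcrl1 were lower. Fcrls, a receptor-like relative of the Fc gamma receptors without a known IgG ligand, measured 236, 208, 263 and 301 CPM at day 4 and 860, 887, 849, 889 and 912 CPM at day 14. The days were far apart and the day 14 libraries close together, with a 3.49-fold rise (adjusted p = 5.19e-07) and rank 23 by p among all genes tested. Fcrlb fell from 7.59 ± 2.23 to 1.62 ± 0.714 CPM and Fcrl1 from 5.11 ± 0.539 to 2.66 ± 0.404 CPM. The other ITAM adaptors divided 1 and 1 of 4 tested. Tyrobp (DAP12), which serves Trem2 and related receptors much as Fcer1g serves the Fc receptors, fell by 0.30 ± 0.10 on the log2 scale (adjusted p = 0.0317), a call lost in 6 of the 9 fits that left out 1 library. Cd79b, a B cell receptor subunit, rose 1.88-fold, from a mean of 5.63 to 10.7 CPM, and it is also counted in the B cell marker sum, which overlapped between days only at its edge.

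**Figure D5:**
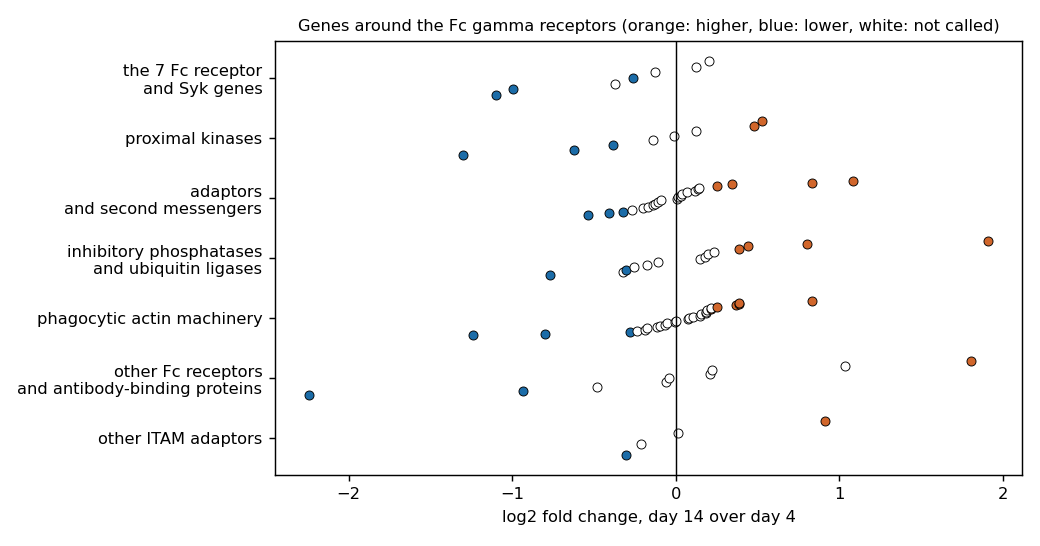
Log2 fold change (x axis, day 14 over day 4) of the 7 genes and of the tested genes of the 6 lists, 1 point a gene, ordered by value within a list. Orange points were called higher, blue points lower and white points were not called at an adjusted p of 0.05. Each of the 6 lists holds points on both sides of 0.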

How the data were processed

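Per the labels' protocols, paired ends were read from 9 TruSeq RNA libraries, a kit that does not mark the strand. Per the submitters' processing notes, the tools were HISAT2 2.1.0, SAMtools 1.4, CASAVA 1.8, DESeq2 and Partek 6.6, and the build was mm10; the role of each, the annotation and any filters are not given in the sources used here. The authors deposited estimated counts per gene symbol, not normalized; on average 16.7% of the values of a library are not whole. The deposited table of normalized values was not used here. The 7 genes and all lists were chosen with earlier results of these data known.

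Estimated counts were rounded, scaled by TMM, filtered with filterByExpr and tested by two-sided quasi-likelihood F tests (edgeR 4.0.16, robust dispersion, R 4.3.3). P-values were adjusted over every tested gene by Benjamini-Hochberg, and a gene was called at an adjusted p under 0.05. The 1504 genes beyond the break in day 14 replicate 5 were left out, and list genes among them were taken from a fit of the 8 other libraries. Gene order along the genome, which places the break, came from RefSeq on GRCm38.p6, and the printed gene positions from GENCODE M21. In RefSeq, 112 symbols found no match, 17103 matched directly and 1088 through an older name. Ratios within a library were tested by exact permutation with SciPy 1.17.1 and adjusted over 6 ratios, and no p is given for ratios that sum several genes. The edgeR step was tested on simulated data. Sequences were read with Biopython 1.88; all 7 symbols matched the promoter table, and protein sequences were not used here.

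The genes named are the 7 genes; of each list, the members passing in a direction where 5 or fewer passed, otherwise the 3 of lowest p plus the member of highest mean CPM; and the 2 genes most alike to each of the 7. Marker lists are given by counts and sums, and some genes that the rule names are not reported here. Lyn, Inpp5d, Ptpn6, B2m, Limk1, Pak1, Elmo1, Ncr1, Epx, Pax5, Klrd1, Cd4, Cd28, Sdhc and Pcp4l1 were picked with their values in view. So were Lck, Cd8a, Cd3d, Cd3e, Cd3g and Vav3. Alternatives were scaling by RLE, by upper quartile or by totals, DESeq2 1.42.0, limma-voom (limma 3.58.1), a filter of 5 CPM (4 or more libraries) or none, dispersion without the robust option, the genes beyond the break kept, log10 library size or fibroblast markers as a covariate, the 6 shallower libraries, and each library left out in turn. For ratios, 0.5 was added to each count. The lowest count of the 7 genes in a library was 982 (Fcgr4).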

Additional observations from a re-analysis of the deposited data

Results flagged for a closer look

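Within each day, a library was singled out where its gap to the nearest other library, over the range of that day, passed Dixon's critical value for its number of libraries. Of 26 groups examined (7 genes and 6 ratios on 2 days), 3 passed, and chance passes about 1 in 20. Day 4 replicate 2 stood low for Fcgr2b, at 867 CPM against 1019 to 1043 CPM in the 3 other day 4 libraries, and for Fcgr3, at 545 CPM against 694 to 708 CPM. Day 14 replicate 2 stood low for Syk, at 690 CPM against 776 to 800 CPM in the 4 other day 14 libraries. The ratio of Fcgr3 to Fcgr2b in day 4 replicate 2 was 0.629, beside 0.666 to 0.695 in the others of its day, and did not stand apart.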

How the results depend on the processing

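Fcgr1 and Fcgr4 kept their direction and call in all 21 alternatives (log2 fold change -1.15 to -1.06 and -1.09 to -0.85). Fcgr2b kept its direction but lost its call with upper-quartile scaling (-0.23), no low-count filter (-0.27), library size as a covariate (-0.21), the fibroblast markers as a covariate (-0.43) and the 6 shallower libraries (-0.22), and ran from -0.32 to -0.23 with 1 library left out. Fcgr3 reversed with the fibroblast covariate (-0.044), and Fcgrt was called by DESeq2 (-0.38) and ran from -0.49 to -0.26 with 1 library left out. Of the list genes, 32 were called, 10 with the fibroblast covariate and 18 in the 6 shallower libraries, and 9 kept their call in every alternative: Fcrlb, Fcrls, Gsn, Marcks, Myo10, Prkca, Prkce, Sh2d1b1 and Src. The ratios of Fcgr1, Fcgr3 and Fcgr4 to Fcgr2b measured -0.85, 0.49 and -0.85 in the 6 shallower libraries, where the smallest p of the exact test is 0.133, and ran from -0.88 to -0.78, from 0.44 to 0.49 and from -0.84 to -0.67 with 1 library left out. Upper-quartile scaling moved the higher share of all calls from 51.3% to 57.6%. The causes of these shifts were not tested, and the fibroblast covariate cannot be fully told apart from the day. No paired analysis was possible because the labels number the libraries singly, and the replicate numbers used here are names that tie no day 4 library to a day 14 library. Fcgrt measured -0.22 with library size as a covariate and -0.076 in the 6 shallower libraries, and the small number of libraries limits these tests.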
